A study of Mus musculus with 6 samples.

Results

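Endothelial adhesion and junction molecules are the 10 genes Icam1, Vcam1, Sele, Selp, Icam2, Pecam1, Cdh5, Jam2, Esam and Cldn5, chosen by name from the 32286 features of the count matrices, and all 10 were present. They were read in single-cell RNA libraries of injured quadriceps from 6 Cdh5-CreERT2:R26R-tdTomato mice, in which the promoter of Cdh5, 1 of the 10 genes, drives a tamoxifen-dependent recombinase that can mark endothelial cells with a red reporter. All mice shared this genotype, a cardiotoxin injury of the quadriceps, and 2 intravenous liposome injections, 1 day before and 2 days after the injury, with collection 5 days after it. The 3 CLL mice received clodronate liposomes, which per the design text ablated circulating monocytes in part, and the 3 SHAM mice received PBS liposomes. Each library came from its own mouse, and values below follow the order of replicates 1, 2 and 3 within a group. The labels give no age, sex, liposome dose or tamoxifen schedule, and whether the transgene adds to the Cdh5 counts was not tested.

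Leukocytes leave the blood in steps. Selectins on activated endothelium catch and roll them, immunoglobulin-family ligands such as ICAM-1 and VCAM-1 hold them through leukocyte integrins, and junction molecules such as PECAM-1 and VE-cadherin govern passage between endothelial cells. Inflammatory cytokines raise transcription of Icam1, Vcam1, Sele and, in mice, Selp, while Icam2, Pecam1 and the junction genes Cdh5, Jam2, Esam and Cldn5 are transcribed in resting endothelium. The comparison therefore set 4 inducible adhesion genes against 6 stable ones.

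The 250 bases before the start site are shown for the inducible genes with the 2 highest endothelial fold changes reported below, and for the junction gene Cldn5 as a contrast. They are RefSeq sequences of GRCm38.p6, plus strand, at chr9:21015690-21015939 for Icam1, chr1:164047984-164048233 for Sele and chr16:18776597-18776846 for Cldn5. Capitals mark the motif matches.
Icam1: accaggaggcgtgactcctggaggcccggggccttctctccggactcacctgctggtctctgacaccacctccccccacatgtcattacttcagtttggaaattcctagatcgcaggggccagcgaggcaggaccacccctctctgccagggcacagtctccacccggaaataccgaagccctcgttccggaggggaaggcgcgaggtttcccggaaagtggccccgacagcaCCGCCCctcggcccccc
Sele: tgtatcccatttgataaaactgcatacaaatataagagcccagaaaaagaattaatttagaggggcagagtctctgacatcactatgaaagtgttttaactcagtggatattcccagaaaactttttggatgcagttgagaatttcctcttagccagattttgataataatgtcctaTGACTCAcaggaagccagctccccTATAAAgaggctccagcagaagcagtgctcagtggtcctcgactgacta
Cldn5: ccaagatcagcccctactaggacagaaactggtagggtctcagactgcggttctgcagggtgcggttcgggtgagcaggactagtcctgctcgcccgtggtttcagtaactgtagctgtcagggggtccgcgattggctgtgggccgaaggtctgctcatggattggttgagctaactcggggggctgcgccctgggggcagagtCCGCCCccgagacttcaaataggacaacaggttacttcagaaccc

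Both strands were searched for a GC box (GGGCGG), an AP-1 site (TGANTCA, its own reverse complement), a TATA box (TATAAA), an ETS site (CCGGAAG) and the kappaB consensus of 10 positions. The reference table held 4 of the 10 members, the fourth being Selp. Icam1 had a GC box 17 to 12 bases before the start and Cldn5 one at 45 to 40, both on the reverse strand, so that the printed strand shows the complement. Sele had an AP-1 match at 73 to 67 and a TATA box at 49 to 44, and Selp an AP-1 match at 139 to 133. No other exact match to these patterns occurred in the 4 windows. The kappaB pattern required GGG at its start and CC at its end. Sites that depart from a pattern were not searched for, so the windows may hold such sites. Of the 27025 windows of the same length in the table, 32.9% held the GC box, 6.87% the AP-1 site, 13.0% the TATA box, 7.05% the ETS site and 3.75% the kappaB consensus. None of these matches was tested for binding. On mm10, the build of the deposited counts, the members lie on chromosome 1 (Sele, 164048234-164057677, and Selp, 164115264-164150026), 3 (Vcam1, 116109949-116129688), 8 (Cdh5, 104101625-104144511), 9 (Icam1, 21015985-21028817, and Esam, 37528078-37538319), 11 (Icam2, 106377656-106388075, and Pecam1, 106654217-106750628) and 16 (Cldn5, 18776847-18778262, and Jam2, 84774123-84825928). These positions span whole genes, exons, introns and UTRs included, in the GENCODE annotation, where all 10 are protein-coding. The Icam1 start there lies downstream of the RefSeq start from which its motif distance was counted.

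After filters, 46685 of 60282 barcodes were kept, 1848 to 19346 a library, with a median of 879 to 13820 UMIs (unique molecular identifiers, 1 per captured transcript) per cell. Pairs of libraries shared 2 to 97 barcodes, at most 1.06% of the smaller library. Cells were clustered without the 10 members, and 13 of 23 clusters took a cell class name from marker lists that hold no member. Endothelial-like cells numbered 39, 206 and 56 in the CLL libraries and 2390, 287 and 171 in the SHAM libraries. Every one of the 20 endothelial markers was detected in all 6 libraries of that class, with a summed level of 5509 to 7162 CPM (UMIs per 1000000 UMIs of the class) in CLL and 7108 to 7752 CPM in SHAM. Transcripts of other cell types were present in this class, and some parted the groups. The 12 mural markers, of vessel-wrapping cells, summed to 23.2 to 121.0 CPM in CLL against 1078 to 1860 CPM in SHAM, and 7 of the 12 fell while none rose. In CLL, 6 to 9 of the mural markers were at 0. The 7 lymphatic endothelial markers summed to 23.7 to 2393 CPM in CLL and 45.6 to 280.5 CPM in SHAM, and the 15 macrophage/monocyte markers to 197.0 to 574.6 and 208.9 to 627.6 CPM. The 12 fibroblast markers summed to 3814 to 6535 CPM in CLL and 2428 to 6650 CPM in SHAM, close to the endothelial ones. Without overlap, the 10 dendritic markers were lower in CLL (120.5 to 166.1 against 242.5 to 391.7 CPM) and the 8 tenocyte markers higher (213.0 to 374.9 against 129.7 to 211.3 CPM), and none of their 2 and 3 tested genes passed. A sign of RNA quality moved with the groups as well. The rRNA-overlapping transcripts Gm42418, AY036118, Lars2 and Gm26917 made 22.6%, 22.5% and 15.7% of the class's UMIs in CLL and 6.26%, 18.5% and 11.5% in SHAM. Sub-clusters 7 and 9, led by these or mitochondrial genes, held 48.7%, 59.7% and 51.8% of the CLL cells and 1.76%, 41.1% and 25.1% of the SHAM cells, a larger part of each CLL library than of any SHAM library. Without these sub-clusters the call of each of the 10 members was the same. A cluster of 183 cells with both endothelial and macrophage markers was left unnamed and is not part of the class. It held 0, 1 and 0 CLL cells and 170, 4 and 8 SHAM cells. Cells with at least 2 macrophage markers stayed in the class. Without them 29, 193 and 46 CLL cells and 1284, 203 and 32 SHAM cells remained.

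The classes that held the members' UMIs split the 10 genes. Endothelial-like cells held 79.5% of Cldn5 UMIs, 79.1% of Cdh5, 76.7% of Pecam1, 76.3% of Icam2, 73.9% of Esam, 73.0% of Selp and 60.0% of Jam2 over all 6 libraries. They held 50.4% of the 577 Sele UMIs, of which fibroblast/tenocyte-like cells held 32.6%. Only 9.43% of Icam1 UMIs lay in endothelial-like cells, against 33.5% in macrophage/monocyte-like and 33.0% in fibroblast/tenocyte-like cells. Vcam1 lay mostly in fibroblast/tenocyte-like (45.6%) and myogenic-like cells (23.0%), with 2.74% in endothelial-like cells. Esam was the member with the largest mural-like part, 5.99%. These shares depend on how many cells of each class a library gave, and they differ by group. Endothelial-like cells held 67.5% to 79.2% of Jam2 UMIs in SHAM and 9.19% to 26.8% in CLL, where fibroblast/tenocyte-like cells held 44.6% in all. For Sele they held 50.7% to 69.2% in SHAM and 10.0% to 49.1% in CLL, where fibroblast/tenocyte-like cells held 65.3% in all.

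**Figure D1:**
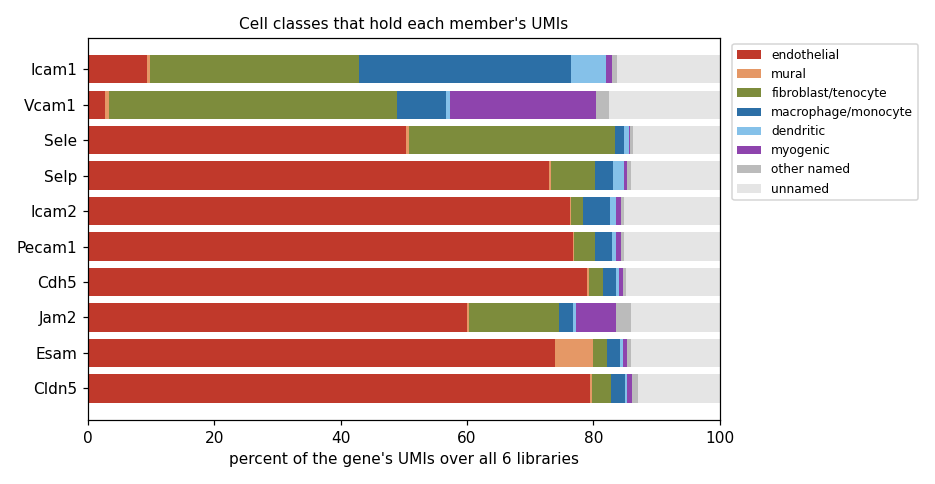
Percent of each member's UMIs (x axis) held by each cell class, summed over the 6 libraries; "unnamed" is clusters without a class name. Icam1 and Vcam1 lay mostly outside endothelial-like cells, and the other 8 had their largest part there in the sum over libraries, though not in every CLL library for Sele, Selp and Jam2.

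Icam1, the integrin ligand ICAM-1, was the 1 member that passed the test in endothelial-like cells. Its level was 208.1, 137.6 and 338.3 CPM in CLL (42, 58 and 73 UMIs) and 98.7, 52.7 and 62.9 CPM in SHAM (768, 119 and 151 UMIs). All 3 CLL values were above all 3 SHAM values. Means were 228.0 ± 101.8 and 71.4 ± 24.2 CPM (SD, n = 3 each), and edgeR's quasi-likelihood test gave a log2 fold of 1.79 ± 0.30 (SE), 3.45-fold, with an adjusted p of 0.0230 over all genes. In that test 20 of 9140 genes passed, a background of 0.219%, and 5 of them (0.0547%) were higher in CLL. Groups parted in this direction for 2.91% of the genes. DESeq2 called Icam1 too (adjusted p = 0.000651), among 60 of 18589 genes (0.323%). The fold was positive under all 21 alternatives (1.38 to 2.05), and the adjusted p, from 7.3e-09 to 0.158, passed in 15. It passed without sub-clusters 7 and 9 (1.94 ± 0.32, adjusted p = 0.0258; 203.4, 176.5 and 404.6 CPM against 98.9, 54.6 and 64.2 CPM). It was lost without CLL replicate 1 (0.0977), CLL replicate 3 (0.158) or SHAM replicate 3 (0.134), with each cell drawn to 1000 UMIs (0.154), and without the cells that held at least 2 mural markers (0.0848) or at least 2 macrophage markers (0.134).

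**Figure D2:**
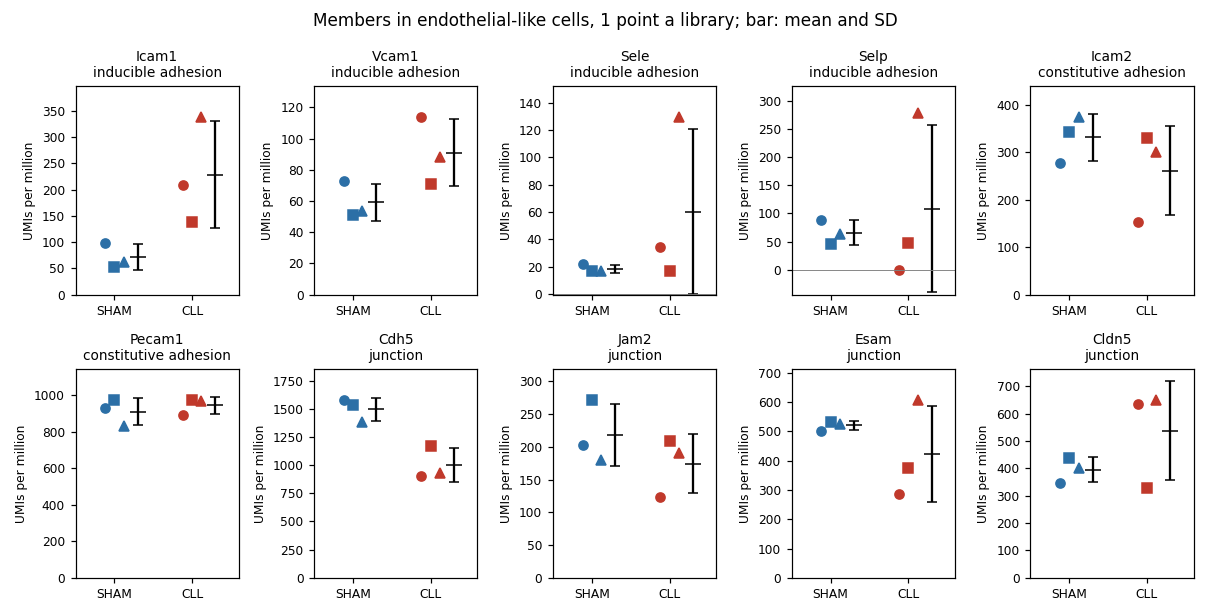
CPM of each member (y axis, linear) in endothelial-like cells of the 6 libraries; circle, square and triangle are replicates 1, 2 and 3, which are numbered but not paired, and the bars give mean and SD. The groups part for Icam1 (137.6 to 338.3 CPM in CLL, 52.7 to 98.7 in SHAM) and, in the other direction, for Cdh5.

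Few cells carried these Icam1 counts. In the CLL libraries they came from 14, 25 and 12 cells, and 1 cell held 10, 20 and 25 of the UMIs. In the SHAM libraries 487, 51 and 60 cells had an Icam1 UMI, with at most 10, 17 and 11 in 1 cell. To set libraries of unequal depth on 1 scale, each cell with enough counts was drawn to 1000 UMIs, which left out 3, 64 and 13 CLL cells and 372, 13 and 3 SHAM cells. An Icam1 UMI was then found in 19.4%, 9.15% and 14.0% of CLL and 7.63%, 4.38% and 7.14% of SHAM endothelial-like cells. Every CLL share was above every SHAM share, with a difference of 7.80 points and a two-sided exact permutation p of 0.10, the smallest that 3 against 3 libraries allow, or 0.50 adjusted over the 10 members. Without drawing, the shares were 12.1% to 35.9% over the 6 libraries at median depths of 1484 to 6790 UMIs. In mural-like cells, drawn the same way, 0 to 1.13% had an Icam1 UMI, and myogenic-like cells were about as low. Other classes had more: 7.29% to 8.74% in macrophage/monocyte-like, 3.7% to 10.3% in dendritic-like and 2.96% to 4.54% in fibroblast/tenocyte-like cells. An unnamed cluster with leukocyte markers had 7.69% to 21.4%. The SHAM endothelial-like shares thus lay within or below the macrophage/monocyte-like range. The part of free RNA in the endothelial-like shares was not tested.

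Vcam1, whose product binds the integrin VLA-4, stood at 113.9, 71.2 and 88.1 CPM in CLL and 72.9, 50.9 and 53.8 CPM in SHAM endothelial-like cells. CLL replicate 2 lay just below SHAM replicate 1, so the groups overlapped. The log2 fold of 0.73 ± 0.25 did not pass edgeR's test (adjusted p = 0.383).

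Sele encodes E-selectin, which slows rolling leukocytes on activated endothelium. It stood at 34.7, 16.6 and 129.8 CPM in CLL, from 7, 7 and 28 UMIs, and at 22.0, 16.8 and 16.7 CPM in SHAM. CLL replicate 3 alone was far above the rest, and all 7 UMIs of CLL replicate 1 were in 1 cell. The log2 fold of 1.68 ± 0.50 did not pass (edgeR adjusted p = 0.284), and it was 0.46 without CLL replicate 3. With no filter on low counts it did pass (log2 fold 1.6, edgeR adjusted p = 0.00091).

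Selp, P-selectin, which catches leukocytes from the flow, had no UMI in CLL replicate 1, which allows up to 14.9 CPM. It stood at 47.5 and 278.1 CPM in CLL replicates 2 and 3 and at 88.4, 45.6 and 64.2 CPM in SHAM. The CLL values spanned the SHAM range on both sides. The log2 fold of 0.77 ± 0.62 did not pass (edgeR adjusted p = 0.814), and its sign turned without CLL replicate 3 (-0.97).

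Icam2 and Pecam1 are adhesion molecules of resting endothelium. Pecam1 stood at 891.7, 973.0 and 968.6 CPM in CLL and 929.7, 971.4 and 831.0 CPM in SHAM, with overlapping groups and a log2 fold of 0.20 ± 0.21 (edgeR adjusted p = 0.851). Icam2 stood at 153.6, 329.9 and 301.3 CPM in CLL and 278.0, 342.5 and 374.7 CPM in SHAM. CLL replicate 1, with 31 Icam2 UMIs, was the lowest, and the fold was -0.18 ± 0.27 (adjusted p = 0.919).

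Cdh5 encodes VE-cadherin, the adhesive core of endothelial adherens junctions. Its level was 901.6, 1172.3 and 931.6 CPM in CLL and 1577.4, 1533.4 and 1381.5 CPM in SHAM. Every CLL value was below every SHAM value, as held in either direction for 18.0% of the 9140 tested genes and in this direction for 15.1%. The log2 fold of -0.42 ± 0.22 did not pass (edgeR adjusted p = 0.675), and it was negative under all 21 alternatives (-0.61 to -0.34). The share of cells with a Cdh5 UMI at 1000 UMIs was 14.5 points lower in CLL (52.8 ± 6.32% against 67.3 ± 7.13%, n = 3 each), without overlap at 1000 UMIs and with overlap at 2000 UMIs, exact permutation p = 0.10 at the first depth, 0.50 adjusted over the members.

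Cldn5, the main claudin of endothelial tight junctions, pointed the other way from Cdh5. It stood at 634.1, 327.5 and 648.8 CPM in CLL and 347.4, 437.7 and 401.3 CPM in SHAM. CLL replicates 1 and 3 were above every SHAM library and CLL replicate 2 below them all, and the log2 fold of 0.57 ± 0.27 did not pass (edgeR adjusted p = 0.615). It was 0.27 without the cells that held at least 2 lymphatic markers, which were highest in the same 2 CLL libraries (2393 and 653.5 CPM, against 23.7 CPM in CLL replicate 2).

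Jam2 and Esam, immunoglobulin-family proteins of endothelial contacts, completed the junction genes. Jam2 stood at 123.8, 208.8 and 190.0 CPM in CLL and 202.2, 271.3 and 180.4 CPM in SHAM, and Esam at 287.3, 374.9 and 607.1 against 502.7, 533.7 and 525.1 CPM. Both sets of libraries overlapped. The log2 folds were -0.16 ± 0.26 and -0.16 ± 0.25, and neither passed edgeR's test (adjusted p = 0.932 and 0.926). Of the 10 members, 1 of the 4 inducible and 0 of the 6 stable genes thus passed, and the median log2 fold of the 10 was 0.39 beside -0.01 over all genes tested. Without the filter on low counts 2 of the 10 passed.

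**Figure D3:**
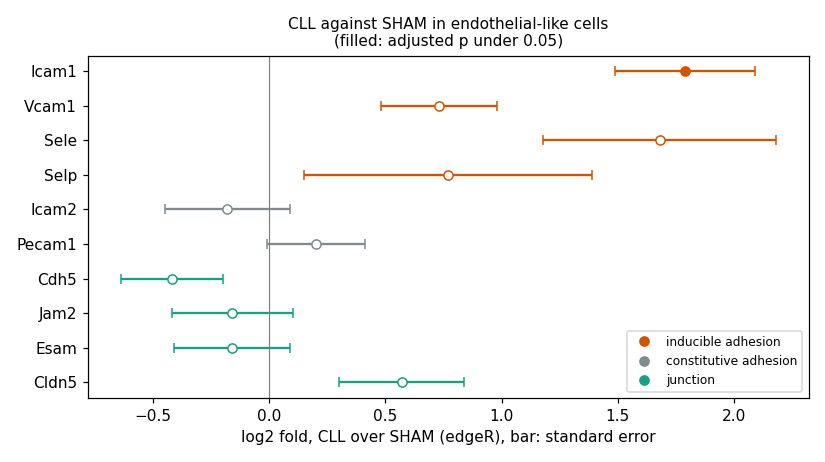
Log2 fold of CLL over SHAM (x axis) for each member in endothelial-like cells, with its standard error, coloured by role; a filled point passed the adjusted threshold of 0.05. Icam1 at 1.79 was the 1 filled point, and the stable members lay between -0.42 and 0.57.

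The inducible and stable genes were also set against each other within each library, as the mean log2(CPM + 1) of the 4 less that of the 6. The difference was -3.63, -3.1 and -1.52 in CLL and -2.99, -3.86 and -3.49 in SHAM. CLL replicate 3 was highest, and CLL replicate 1, with no Selp UMI, lay within the SHAM range. The group means differed by 0.70, less than the pooled SD of 0.83, and by 0.08 without CLL replicate 3. On the linear scale, for every 1000 CPM of the 6 stable genes the 4 inducible genes made 119.2, 80.6 and 228.7 CPM in CLL and 73.5, 40.6 and 53.5 CPM in SHAM, and Icam1 alone made 69.5, 40.6 and 92.8 against 25.7, 12.9 and 17.0 CPM.

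Within endothelial-like cells the members marked different vessel segments. Of 14 sub-clusters, 1 was venous-like (led by Ackr1, Lrg1 and Vwf) and 1 arterial-like (led by Gja5 and Sema3g). In SHAM replicate 1, which held most cells, the venous-like sub-cluster had 697 CPM Selp, 239.7 CPM Vcam1, 227.4 CPM Icam1 and 156.5 CPM Sele. The arterial-like one had 2.19 CPM Selp, 43.8 CPM Vcam1 and 118.3 CPM Icam1, with Sele at 0. Arterial-like cells of that library were higher in Icam2 (512.8 against 170.0 CPM) and Cldn5 (714.3 against 237.2 CPM). In SHAM replicate 3, from 3 arterial-like and 7 venous-like cells, Cldn5 was higher in the venous-like ones (862.8 against 1113 CPM). These levels are descriptions without a test.

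**Figure D4:**
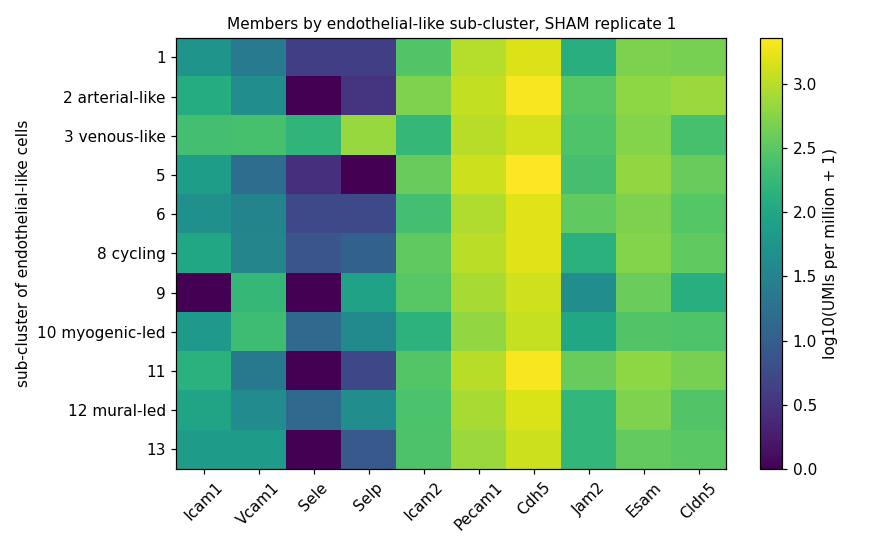
Level of each member, as log10(CPM + 1), in the endothelial-like sub-clusters with at least 20 cells in SHAM replicate 1; sub-clusters without a name are given by number. Selp and Sele were highest in the venous-like sub-cluster (697 and 156.5 CPM), while Cdh5 (1161 to 2269 CPM) and Pecam1 (638.1 to 1262 CPM) were detected in every one shown.

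Venous-like cells were 1 of 39, 3 of 206 and 4 of 56 endothelial-like cells in CLL (2.56%, 1.46% and 7.14%) and 11.3%, 4.18% and 4.09% in SHAM. The 95% Wilson intervals of the CLL shares ran from 0.454% to 13.2%, 0.496% to 4.19% and 2.81% to 17.0%. CLL replicate 3, the library with the highest Sele and Selp, also had the highest venous-like share of the CLL libraries, and its venous-like cells held 78.6% of its Sele and 63.3% of its Selp UMIs. They held 27.4% of its Icam1 UMIs. SHAM replicate 1 had the largest venous-like share of the 6 libraries, 11.3%, with Sele at 22.0 CPM. Outside the venous-like sub-cluster Sele stood at 35.5, 14.6 and 32.2 CPM in CLL, from 7, 6 and 6 UMIs. In SHAM it stood there at 6.18, 3.7 and 9.17 CPM. Selp outside that sub-cluster stood at 0, 21.9 and 118.0 CPM in CLL and 16.9, 1.39 and 14 CPM in SHAM. Of these CLL counts, the myogenic-led sub-cluster held 7 Sele UMIs, from 10 cells. The dendritic-led one held 6 Sele and 20 Selp UMIs, from 2 cells. In SHAM these sub-clusters held 22 and 2 Sele UMIs and 50 and 6 Selp UMIs. With the venous-like cells kept and the sub-clusters led by dendritic, myogenic or mural markers left out, Sele had 0, 7 and 22 UMIs in CLL. Without the venous-like sub-cluster, an alternative added with the data in view, Icam1 stood at 203.0, 114.3 and 284.2 CPM in CLL and 83.6, 37.4 and 53.3 CPM in SHAM, again without overlap, and passed edgeR's test (log2 fold 1.88 ± 0.33, adjusted p = 0.0275). Its test also passed without the sub-clusters led by dendritic, myogenic or mural markers (1.81 ± 0.31, adjusted p = 0.00981). The myogenic-led one scored 3.16 for myogenic and 2.93 for lymphatic endothelial markers, so lymphatic-like cells were left out with it. Sub-clusters 6, 7, 9 and 13 scored highest for the fibroblast list and held 48.7%, 64.6% and 57.1% of CLL and 28.9%, 44.3% and 32.7% of SHAM cells, and Icam1 passed without them (1.85 ± 0.31, adjusted p = 0.0263). These alternatives too were added with the data in view. The Icam1 difference was uneven over the sub-clusters, given here as pooled levels of CLL and SHAM cells without a test. In the 5 sub-clusters with at least 20 CLL cells Icam1 stood at 47.4 and 37.7 CPM in sub-cluster 7, which held the most CLL cells (98 of them), and at 36.3 and 55.1 CPM in sub-cluster 1, the reverse order. It stood at 87.8 and 40.9 CPM in sub-cluster 0, 291.7 and 94.9 CPM in the arterial-like one and 182.9 and 42.1 CPM in sub-cluster 9. The 24 arterial-like cells of CLL replicate 2 had no Icam1 UMI. In the venous-like cells, 8 from CLL and 288 from SHAM, it stood at 744.3 and 247.2 CPM.

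Whether Icam1 differed in other classes was read next. In macrophage/monocyte-like cells it stood at 81.8, 68.2 and 78.0 CPM in CLL and 87.0, 75.4 and 73.9 CPM in SHAM, and in fibroblast/tenocyte-like cells at 30.3, 26.5 and 31.9 against 31.8, 37.0 and 36.9 CPM. The groups overlapped in both, and the log2 folds of -0.04 ± 0.14 and -0.16 ± 0.13 did not pass (edgeR adjusted p = 0.908 and 0.404). In dendritic-like cells the fold was -0.51 ± 0.28 (adjusted p = 0.487) and in myogenic-like cells, where Icam1 was at 2.03 to 10.4 CPM, -1.24 ± 0.42 (adjusted p = 0.0652). The endothelial-like effect exceeded that in fibroblast/tenocyte-like cells by 1.90 ± 0.29 on the log2 scale (edgeR interaction, library as block, adjusted p = 0.00295) and that in macrophage/monocyte-like cells by 1.83 ± 0.27 (adjusted p = 0.00969). These interactions passed for 2.54% of 13485 and 0.604% of 12587 genes, with a larger effect in endothelial-like cells for 1.19% and 0.230%. The first passed with any 1 library left out (adjusted p 6.66e-09 to 0.0436), and the second failed without CLL replicate 1 (0.0750) or CLL replicate 3 (0.133).

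**Figure D5:**
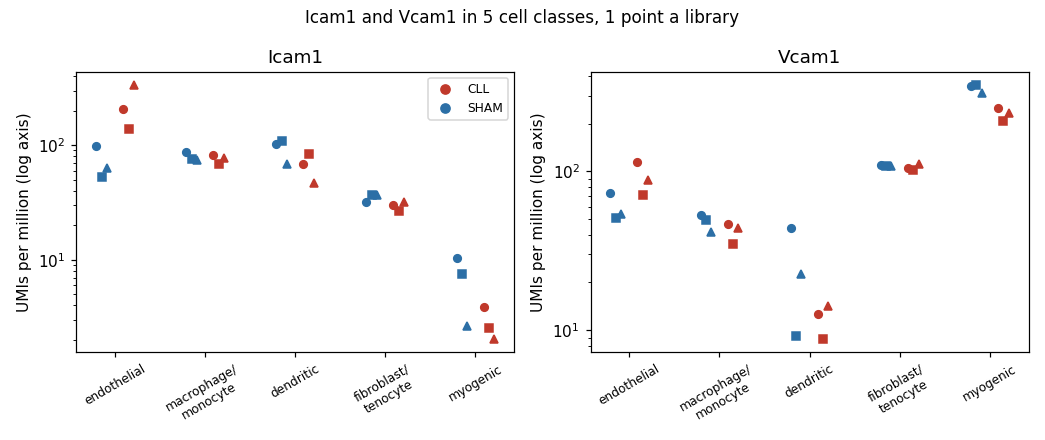
CPM (log axis) of Icam1 and Vcam1 in the 5 tested classes, 1 point a library; circle, square and triangle are replicates 1, 2 and 3. Icam1 parted the groups in endothelial-like cells, and Vcam1 in myogenic-like cells, where CLL libraries (208.2 to 251.1 CPM) lay below SHAM (311.5 to 352.0 CPM). The Vcam1 fold there did not pass edgeR's test.

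Vcam1 is also a marker of muscle stem cells and of stroma. In myogenic-like cells it stood at 251.1, 208.2 and 233.6 CPM in CLL and 344.6, 352.0 and 311.5 CPM in SHAM, without overlap. The share of all genes whose groups part in this class was not computed. The log2 fold of -0.41 ± 0.14 did not pass (edgeR adjusted p = 0.0644, where 15.4% of 11012 genes passed). In fibroblast/tenocyte-like cells the 6 libraries lay between 101.5 and 110.8 CPM, with a fold of 0.06 ± 0.11 (adjusted p = 0.737). The Vcam1 effect did not differ between endothelial-like and fibroblast/tenocyte-like cells past the threshold (interaction 0.67 ± 0.24, adjusted p = 0.192), nor against macrophage/monocyte-like cells (0.96 ± 0.25, adjusted p = 0.119).

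Endothelial members also left low counts in classes that are not endothelial, and some of these fell in CLL. In fibroblast/tenocyte-like cells Cdh5 stood at 1.16, 1.89 and 0.601 CPM in CLL and 25.6, 3.1 and 6.25 CPM in SHAM. Cdh5 fell there (log2 fold -3.25 ± 0.65, edgeR adjusted p = 0.00708), as did Esam (-2.92 ± 0.56, 0.00547), Jam2 (-1.0 ± 0.29, 0.0331) and Selp (-1.91 ± 0.61, 0.0451). That made 4 of the 9 members tested, all lower, beside 12.7% of 14179 genes lower and 24.3% changed in either direction. In macrophage/monocyte-like cells Cldn5 fell from 5.84, 1.35 and 2.47 CPM in SHAM to 0.141, 0.272 and 0.117 CPM in CLL (-4.29 ± 0.71, adjusted p = 0.0142), and Cdh5 fell too (-3.37 ± 0.66, 0.0236). These were 2 of 7 tested, beside 2.66% of 11614 genes lower and 4.50% in either direction. The filter on low counts keeps a gene that is high enough in as many libraries as a group holds. A gene near 0 in CLL can thus enter by its SHAM levels alone. Cldn5 did so here, with 1 UMI in each CLL library against 112, 8 and 23 in SHAM. The counts of lower members are therefore not independent of the filter.

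Some endothelial markers outside the 10 members fell in these classes too. In fibroblast/tenocyte-like cells 10 of 17 tested endothelial markers fell and 1 rose, where 12.7% of all genes were lower. In macrophage/monocyte-like cells 2 of 9 fell and none rose, where 2.66% were lower. The summed level of the markers overlapped between the groups in the first class and not in the second. The 20 markers summed to 162.4 to 188.7 CPM in CLL and 161.1 to 242.1 CPM in SHAM in the first class, and to 210.8 to 217.1 against 226.3 to 329.7 CPM in the second, where 3 or 4 of them were at 0 in CLL. Endothelial-like cells were 0.995% to 2.03% of kept cells in CLL and 12.35%, 15.53% and 2.77% in SHAM. The Cdh5 level in fibroblast/tenocyte-like cells was highest in SHAM replicate 1 (25.6 CPM), which held 2390 endothelial-like cells. It did not follow the endothelial-like share within SHAM, at 3.1 CPM in replicate 2 and 6.25 CPM in replicate 3. Unnamed cells, counted in those totals, were 17.24%, 59.4% and 18.86% of kept cells in CLL and 20.75%, 16.23% and 82.38% in SHAM. At 1000 UMIs, a Cdh5 UMI was found in 0 to 1.65% of fibroblast/tenocyte-like cells and in 46.5% to 75.4% of endothelial-like cells. The part of free RNA or mixed droplets in these low counts was not tested. The interaction terms of Cdh5 (2.48 ± 0.55, adjusted p = 0.0269) and Esam (2.65 ± 0.52, 0.0165) against fibroblast/tenocyte-like cells, and of Cldn5 against macrophage/monocyte-like cells (4.96 ± 0.76, 0.00969), passed in edgeR. In endothelial-like cells themselves none of the 3 genes passed. Without SHAM replicate 1, where 2 of 9 instead of 4 members were lower in fibroblast/tenocyte-like cells, the Cdh5 interaction was 1.38 (adjusted p = 0.00278).

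Dendritic-like and myogenic-like cells gave no call among 5 tested members each. In dendritic-like cells 0.480% of 8126 genes passed, and Cdh5 stood at 6.23 to 13.2 CPM in CLL and 13.4 to 22.5 CPM in SHAM (log2 fold -1.08 ± 0.36, edgeR adjusted p = 0.231). Mural-like cells, with 12 to 26 cells a CLL library, were not tested. Their Esam level was 126.6, 101.7 and 40.4 CPM in CLL and 156.1, 229.2 and 199.4 CPM in SHAM, from 19, 9 and 3 UMIs in CLL.

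The members were also summed over all kept cells. In these sums 9 of the 10 fell in CLL, beside 19.0% of 16687 genes lower and 36.6% in either direction, and Vcam1 did not pass (0.18 ± 0.10, edgeR adjusted p = 0.185). Cdh5 fell from 233.6, 162.4 and 132.4 CPM to 4.46, 12.9 and 4.36 CPM (-4.54 ± 0.45, adjusted p = 0.000335), and Cldn5 from 52.0, 46.0 and 37.9 CPM to 3.22, 3.39 and 2.60 CPM (-3.82 ± 0.15, 3.62e-05). Icam1 fell less in size, from 60.7, 52.2 and 46.7 CPM to 36.1, 28.3 and 35.6 CPM (-0.60 ± 0.13, adjusted p = 0.00843). Fewer endothelial cells and less RNA per cell cannot be told apart in these sums. Icam1 was thus lower in CLL over the whole suspension and higher in the endothelial-like cells, which held 1.94% to 3.92% of its UMIs in CLL and 10.0% to 18.3% in SHAM.

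Other genes of the same pathways were read from lists. In endothelial-like cells 0 of 93 tested genes of 6 lists passed edgeR's test, and DESeq2 called 4 (Klf4, Cxcl10, Klf2 and Nfkbia). Of 24 cytokine-induced activation genes 23 were tested, with 14 positive folds and a median log2 fold of 0.27 beside -0.01 over all genes. The 4 with the smallest p were Cxcl10, an interferon-induced chemokine (-1.79 ± 0.35, adjusted p = 0.0579), the NF-kappaB inhibitor gene Nfkbia (1.08 ± 0.26, 0.156), the monocyte chemokine Ccl2 (1.16 ± 0.33, 0.247) and the neutrophil chemokine Cxcl2 (1.82 ± 0.54, 0.284). Cxcl10, Nfkbia and Ccl2 parted the groups, Cxcl10 at 38.2 ± 20.6 CPM in CLL and 162.5 ± 53.1 CPM in the SHAM libraries. Of the 14 junction transcription factors, the flow-responsive factors Klf4 (1.42 ± 0.28, 0.0591) and Klf2 (0.94 ± 0.23, 0.170) had the smallest p, followed by Fli1 (-0.93 ± 0.30, 0.338) and Sox18 (-0.72 ± 0.27, 0.440).

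The lists of partners showed smaller median folds. Among 16 tested genes of leukocyte adhesion and transmigration, F11r, which encodes JAM-A, stood at 123.4 ± 14.9 CPM in CLL and 208.3 ± 7.91 CPM in SHAM (-0.58 ± 0.21, edgeR adjusted p = 0.439), and the caveolin gene Cav1, Mcam and Aoc3 followed (adjusted p 0.495 to 0.538). The list's median was 0.00. The 19 adherens junction partners had a median of -0.08, with Heg1, Jup, Cdh2 and Nectin1 of smallest p (adjusted p 0.706 to 0.760). The 10 tested tight and gap junction partners had a median of -0.19, led by the connexin gene Gja1 (-0.62 ± 0.25, 0.521) and then Cgnl1 and Cldn15. The 11 tested cytokine receptors had a median of -0.06, and Il6st, Il1r1, Tnfrsf1a and Tlr4 had adjusted p from 0.746 to 0.893.

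The cells that carry the partners of these molecules were read for 2 lists. In macrophage/monocyte-like cells 2 of 12 counter-receptor genes rose and none fell, where 1.84% of genes were higher. These were Itgam, the alpha chain of the ICAM-1 receptor Mac-1 (129.1 ± 15.4 CPM in CLL, 77.6 ± 9.71 CPM in SHAM, 0.73 ± 0.12, edgeR adjusted p = 0.0149), and Spn, the sialomucin CD43 (1.30 ± 0.23, 0.0178). Selplg, the P-selectin ligand, did not pass (-0.52 ± 0.16, 0.0982), nor did Itga6 (0.39 ± 0.14, 0.141). Among 7 tested inducing cytokines Ifnb1 rose from 12.7 ± 4.85 to 94.0 ± 33.6 CPM (2.94 ± 0.37, 0.00484) and Tnf from 225.5 ± 44.7 to 467.8 ± 77.1 CPM (1.05 ± 0.22, 0.0316), while Osm (-0.45 ± 0.19, 0.219) and Ltb (0.22 ± 0.39, 0.804) did not pass. In dendritic-like cells none of 12 counter-receptor genes and none of 6 cytokine genes passed.

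By pattern over 46 class-by-library sums, the genes most like each member were found by Pearson's r of log2(CPM + 1) among 10740 others, as a description across points that share libraries and depth. Icam2 and Pecam1 resembled each other (r = 0.950). Pecam1 was also followed by the reporter sequence Tomato (0.940), and Icam2 by Gimap4 (0.954) and Dll4 (0.951). Cdh5 was most like Sox18 (0.948), Gimap4 (0.943) and Gpihbp1 (0.942), Cldn5 like Tie1 (0.966), Sox18 (0.958) and Cyyr1 (0.957), and Esam like Tcf15 (0.954), Flt1 (0.946) and Kitl (0.939). Jam2 was most like Palmd (0.918), Bend7 (0.879) and Adgrg1 (0.866). Among the inducible genes Sele was most like Eva1a (0.920), Ptprr and Sox7 (both 0.899), Selp like Gm12002 (0.912), Akr1c14 (0.899) and Grrp1 (0.873), Icam1 like Lmo2 (0.900), Trim30a (0.879) and Galnt7 (0.871), and Vcam1 like Nckap5l (0.830), Dpy19l3 (0.805) and Pcdh7 (0.791).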

How the data were processed

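The deposited values are raw counts of UMIs per gene and barcode, made by the authors with Cell Ranger 6.1.2 on build mm10, per the submitters' processing notes, from Chromium Single Cell 3′ version 3.1 libraries, per the labels' protocols. The labels do not say how the deposited barcodes were selected. Genes, members and lists were chosen with earlier results of these data known.

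Barcodes with under 300 genes or over 15% mitochondrial counts were left out, and the barcodes with the highest Scrublet scores were removed as doublets, at 0.8% per 1000 cells (7032 cells). Clusters came from 2000 variable genes without the members, 30 components, 15 neighbours and Leiden resolution 1 (scanpy 1.11.5). A class name needed at least 3 marker genes each detected in at least 10% of cells, a mean log2 fold of at least 0.5 and at least 20 cells. The rule's final form, with clusters of mixed markers left unnamed, was set with the clusters seen. Endothelial sub-clusters took the best-scoring list with at least 3 markers detected, without the limits of 0.5 and 20 cells. Sub-clusters 7 (score 0.43) and 9 (0.2), scored fibroblast, and the dendritic-led sub-cluster 4 (14 cells) lay below those limits.

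Counts were summed per class and library, and a class was tested where each library had at least 20 of its cells. The test was edgeR 4.0.16 (quasi-likelihood, TMM, filterByExpr, Benjamini-Hochberg at 0.05), with group as the only term. SE is the log2 fold over the square root of its F statistic. CPM in the text divides by the class total of a library, without TMM. Drawn shares had two-sided exact permutation tests, and intervals cover counting error only. Library totals were 23873416 to 94841003 UMIs. The genes named were all members, the 4 genes of smallest p and any called in each list, and the 3 most similar genes per member. A gene that this rule names in a pathway list is not reported here. Alternatives were DESeq2 1.42.0, RLE scaling, no filter, a replicate block, other clusterings, cells drawn to 1000 UMIs, marker-based exclusions and each library left out. The edgeR fits, interaction included, were run on simulated counts with known folds as a check of the code. Those counts were drawn independently, so error rates for sums that rest on few cells were not tested.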

Additional observations from a re-analysis of the deposited data

Results flagged for a closer look

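The interaction test in edgeR passed for 5 pairs of member and class. Icam1 had a log2 effect larger in endothelial-like than in fibroblast/tenocyte-like cells by 1.90 and than in macrophage/monocyte-like cells by 1.83, with a positive fold in the endothelial-like cells and folds near 0 in both others. Against fibroblast/tenocyte-like cells the difference was 2.65 for Esam and 2.48 for Cdh5, and against macrophage/monocyte-like cells it was 4.96 for Cldn5. For these 3 junction genes the endothelial-like fold did not pass, and the low counts in the other class were lower in CLL. Their terms rest on those low counts, so no response of endothelial-like cells can be read from them. The Cdh5 difference lost its call without any 1 of the CLL libraries (adjusted p 0.0933 to 0.146), Esam without CLL replicate 1 (0.0934) or 3 (0.113), and Cldn5 without CLL replicate 1 (0.128) or 3 (0.180).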

How the results depend on the processing

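Of the 10 members in endothelial-like cells 1 passed, and 2 passed with no filter on low counts, 0 with cells drawn to 1000 UMIs, 0 without cells with 2 mural markers and 0 without cells with 2 macrophage markers. In dendritic-like cells 1 passed with no filter, against 0. In fibroblast/tenocyte-like cells 7 passed with no filter, 2 with no doublet removal and 0 with drawn cells, against 4. In macrophage/monocyte-like cells 4 passed in DESeq2, 6 with no filter, 1 with no doublet removal and 0 with drawn cells, against 2. In myogenic-like cells 5 passed with no filter, 1 with members kept among the variable genes, 1 at Leiden resolution 2 and 2 with no doublet removal, against 0. Of the pathway genes in endothelial-like cells 8 passed with no filter, 4 in DESeq2, and 1 each with members kept, without lymphatic-marker cells, without the venous-like sub-cluster and without the sub-clusters scored fibroblast, against 0. With a library left out the counts ran from 0 to 1 member in endothelial-like, 2 to 6 in fibroblast/tenocyte-like, 0 to 5 in macrophage/monocyte-like and 0 to 2 in myogenic-like cells, 1 to 7 and 0 to 7 for the interactions with fibroblast/tenocyte-like and macrophage/monocyte-like cells, and 0 to 3 for the pathway genes. The cause of these moves was not tested, except that drawing to 1000 UMIs left 2290 of 9140 genes to test.

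Signs turned for folds that were small or far from the threshold. With cells drawn to 1000 UMIs, Icam2 came to 0.12 and Selp to -0.15 in endothelial-like cells, and Vcam1 to -0.06 in fibroblast/tenocyte-like and 0.09 in macrophage/monocyte-like cells. With a library left out, the endothelial-like folds ran from -0.97 (no CLL replicate 3) to 1.27 for Selp, from -0.50 to 0.01 (no CLL replicate 1) for Esam, from -0.45 to 0.05 (no CLL replicate 1) for Icam2 and from -0.38 to 0.08 (no SHAM replicate 2) for Jam2. The Pecam1 fold ran from -1.69 to 0.17 in fibroblast/tenocyte-like and from -1.94 to 0.05 in myogenic-like cells, and its interaction from -0.08 to 1.81, in each case turned by leaving out SHAM replicate 1. Icam1 in macrophage/monocyte-like cells ran from -0.13 to 0.08, with 0.00 without SHAM replicate 2, and the Selp interaction with that class from -0.12 (no CLL replicate 3) to 2.79.

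With the replicate number as a block, 121 instead of 20 endothelial genes passed, 8 instead of 0 pathway genes, and 1 member as before, Icam1 (adjusted p = 2.7e-05). Same-numbered endothelial-like libraries deviated together with correlations of 0.181, 0.233 and 0.079, 1 of them under 0.1, and no label ties the numbers, so they were not taken as pairs, although each CLL library correlated best with its own number. DESeq2 called 60 genes and no filter 177. The CLL endothelial-like sums hold 201865 to 421393 UMIs, against 2259644 to 7779997 in SHAM, and Sele and Selp UMIs came from 0 to 6 cells a CLL library.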
